A study of Petunia x hybrida with 22 samples.

Results

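In the petunia corolla, 859 regions carried less acetylation of histone H3 at lysine 27 (H3K27ac) at 7PM than at 7AM in both replicates and overlapped no region listed as changed for acetylation of lysine 9 (H3K9ac). They were chosen from the authors' deposited lists of islands, which are intervals where the reads of a 7PM and a 7AM library differed by at least 2-fold. Falling H3K27ac islands of replicates 1 and 2 were joined wherever they shared at least 1 bp, which gave 3698 regions with an island of both replicates. Of these, 2797 (75.6%) overlapped an H3K9ac island of either replicate and either direction and were set aside, and 42 more (1.14%) fell 4-fold or more in both replicates and were also set aside. The remaining 859 regions make up 23.2% of the falling H3K27ac regions, lie among 83562 merged regions of all 16 lists, cover 1484 kb and stand on 523 scaffolds. The values that chose them, H3K27ac in both replicates and the H3K9ac lists, are given below as a description without a test. Absence from the H3K9ac lists means that no change past the authors' threshold was listed, and says nothing about the level of H3K9ac there.

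Histone acetylation loosens the hold of histones on DNA and is read by proteins that help transcription start. H3K27ac marks active promoters and enhancers, H3K9ac marks active promoters, and in plants both usually lie near the start of transcribed genes. H3K4me3 also sits around active start sites, whereas H3K36me3 lies over transcribed gene bodies. Acetyl groups are added by acetyltransferases and removed by deacetylases, and in Arabidopsis the acetylation at genes of the circadian clock rises and falls over the day. The lists name scaffold intervals and no genes, so the regions are called here by their place on the Peaxi162 scaffolds.

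The tissue was corolla of Petunia x hybrida cultivar Mitchell, whose white petals release scent at night. Greenhouse lights were on for 14 h, between 6AM and 8PM, and off for 10 h, so the evening sample came late in the light period and the morning sample early in it. Chromatin immunoprecipitation and sequencing (ChIP-seq) was done with antibodies to H3K27ac, H3K9ac, H3K4me3 and H3K36me3, with 2 biological replicates at 7PM and 2 at 7AM for each mark, numbered 1 and 3 for H3K36me3 and 1 and 2 for the others. The lists used hold no gene names or expression, so the tissue was not checked against markers. The 6 input samples were not used here. Library totals ran from 6721831 to 14140437 reads for H3K27ac, from 11507185 to 15757663 for H3K9ac, from 27700344 to 51116862 for H3K4me3 and from 26643442 to 43918569 for H3K36me3. Corolla holds several cell types, and fewer cells that carry a mark cannot be told apart from less of the mark per cell. Counting intervals given below cover the counting of reads and not the variation between flowers. Exact binomial intervals of shares take regions as independent and leave out the spread between replicates.

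Most of the 859 regions were short and held few reads. Their median length was 1600 bp, and the middle 50% ran between 1200 and 2000 bp. In replicate 1 the median was 15 reads at 7PM against 32 at 7AM, and in replicate 2 it was 7 reads at 7PM against 18 at 7AM. In counts per 1000000 library reads (CPM) and per kb of listed island, the medians were 0.960 at 7PM and 2.49 at 7AM in replicate 1, and 0.809 at 7PM and 2.42 at 7AM in replicate 2. Morning levels were close in the 2 replicates, and both evening medians lay below the lower quartile of either morning library, which is 2.07 in replicate 1 and 1.98 in replicate 2. The choice of islands at least 2-fold lower at 7PM favours that gap. Falling regions that overlapped an H3K9ac island were longer, with a median of 2400 bp, and denser, with medians of 1.18 CPM per kb at 7PM and 3.39 at 7AM in replicate 1, and of 1.01 at 7PM and 3.16 at 7AM in replicate 2. Both 7PM values were under both 7AM values at 853 of the 859 regions (99.3%); the share was 99.4% over all 3698 falling regions, and both follow from the choice of falling islands.

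**Figure D1:**
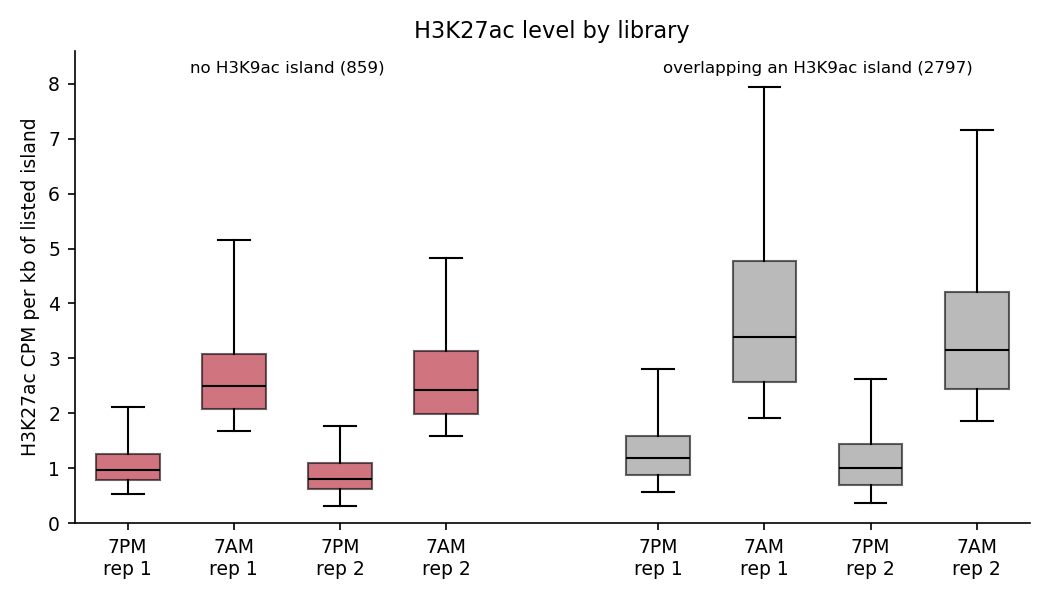
H3K27ac level in CPM per kb of listed island (y axis) in each library (x axis), for the 859 regions without an H3K9ac island (red) and the 2797 falling regions that overlap one (grey); boxes span the middle 50%, the line is the median and whiskers run to the 5th and 95th percentiles. Evening medians of the 859 regions are 0.960 and 0.809, morning medians 2.49 and 2.42, and the morning boxes of the grey group sit higher.

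The size of the fall was limited by the choice of regions. The lists hold no island below 2-fold, and the rule leaves out regions that reach 4-fold in both replicates. Log2 folds divide the 7PM by the 7AM level, with 1 read added to every count before it is set against its library total. The 4-fold limit uses CPM without the added read, and the 42 regions it removed had log2 folds of up to -1.80 in replicate 1. A single replicate could fall further than 4-fold, and the lowest log2 fold was -3.05 in replicate 1 and -4.15 in replicate 2. The median over the 859 regions was -1.27 in replicate 1 and -1.44 in replicate 2, and the mean of both replicates had a median of -1.41 with the middle 50% between -1.62 and -1.23. Replicate 2 showed the stronger fall at 539 regions (62.7%), against 56.9% of all 3698 falling regions. The mean of the 2 log2 folds passed 4-fold at 48 of the 859 regions, which the rule keeps when 1 of the 2 replicates stays under 4-fold. Across regions the folds of the 2 replicates were nearly unrelated (Pearson r = 0.0053, Spearman rho = 0.062, n = 859 regions, each pair of values sharing 2 libraries with all others). Pearson r was 0.38 over the 2797 regions that overlapped H3K9ac, but 0.083 over the 2563 of them that stayed under the 4-fold limit. Over all 901 regions without H3K9ac, with no fold limit, it was 0.20. Leaving out strong falls thus lowers the value in both groups.

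**Figure D2:**
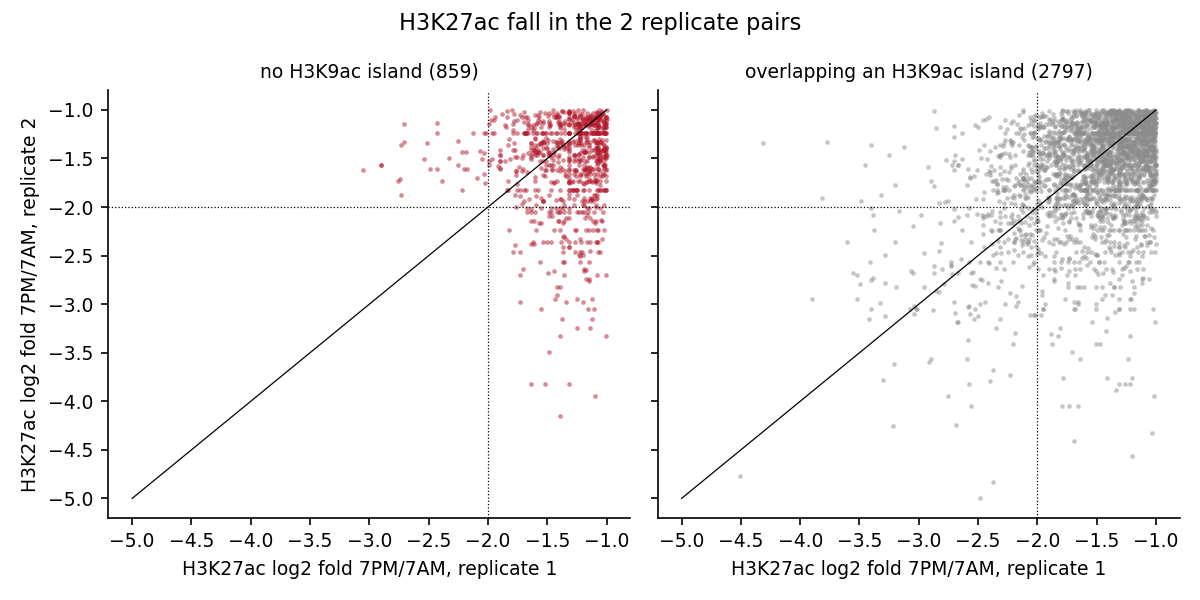
H3K27ac log2 fold of 7PM over 7AM in replicate 1 (x axis) and replicate 2 (y axis), 1 point per region, for the 859 regions without an H3K9ac island (left) and the 2797 that overlap one (right). Dotted lines mark 4-fold after 1 read is added, the diagonal marks equal folds, and the rule leaves the lower left corner of the left panel empty. The limit of the rule is on CPM without the added read, so some removed regions would lie outside that corner.

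Among the 859 regions, 30 (3.49%) had 50 or more H3K27ac reads at 7AM in each replicate, against 35.5% of the regions that overlapped H3K9ac. Their median log2 fold was -1.24, their median length 2800 bp, and their folds ran between -1.65 and -1.05. The 2 replicates were closer here, with a median SD of 0.12 on the log2 scale, compared with 0.24 over all 859. The nearest H3K9ac island lay at a median of 10100 bp from them, and 5 had one within 1 kb.

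Among these 30, ranked by the weaker of their 2 falls, the strongest was on Peaxi162Scf00003 at 1804001 to 1805800. H3K27ac stood there at 3.11 CPM at 7PM against 9.59 CPM at 7AM in replicate 1 (44 and 109 reads), and at 2.27 CPM at 7PM against 7.59 CPM at 7AM in replicate 2 (18 and 51 reads). The log2 fold averaged -1.65 ± 0.063 (SD, n = 2 replicate pairs). The evening and morning values did not overlap, which the choice of falling islands favours. The ratio of 7PM to 7AM was 0.324 (95% exact counting interval 0.223 to 0.465) in replicate 1 and 0.299 (0.164 to 0.520) in replicate 2. An H3K36me3 island lower in replicate 3 also overlapped it. An H3K9ac island lower in replicate 1 began 4200 bp further along the scaffold, with 27 reads at 7PM against 51 at 7AM.

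Close behind was Peaxi162Scf00201 at 328801 to 331600, with 3.25 CPM at 7PM against 9.68 at 7AM in replicate 1 and 3.02 at 7PM against 9.37 at 7AM in replicate 2. Its log2 fold was -1.58 ± 0.030 (SD, n = 2 replicate pairs), and the islands of both replicates were 2600 bp long. On Peaxi162Scf01161 at 116601 to 119200 the mark stood at 4.53 CPM at 7PM against 15.4 at 7AM in replicate 1 and at 4.41 at 7PM against 12.5 at 7AM in replicate 2, with a log2 fold of -1.62 ± 0.19. This region had the most morning signal of the 6 strongest falls, and its nearest H3K9ac island was 59400 bp away.

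The other regions of that group lay on Peaxi162Scf00546 at 185201 to 188600 (log2 fold -1.53 ± 0.12), Peaxi162Scf00580 at 777001 to 780600 (-1.49 ± 0.12) and Peaxi162Scf00496 at 895401 to 898000 (-1.43 ± 0.13, SD, n = 2 replicate pairs each). Their evening values ran between 3.11 and 4.15 CPM and their morning values between 8.78 and 10.7 CPM. In each of the 6 regions both 7PM libraries were below both 7AM libraries, which the choice of strongly falling regions favours. Beside the region on Peaxi162Scf00546, 800 bp away, stood an H3K9ac island listed higher in replicate 2, with 32 reads at 7PM against 12 at 7AM.

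**Figure D3:**
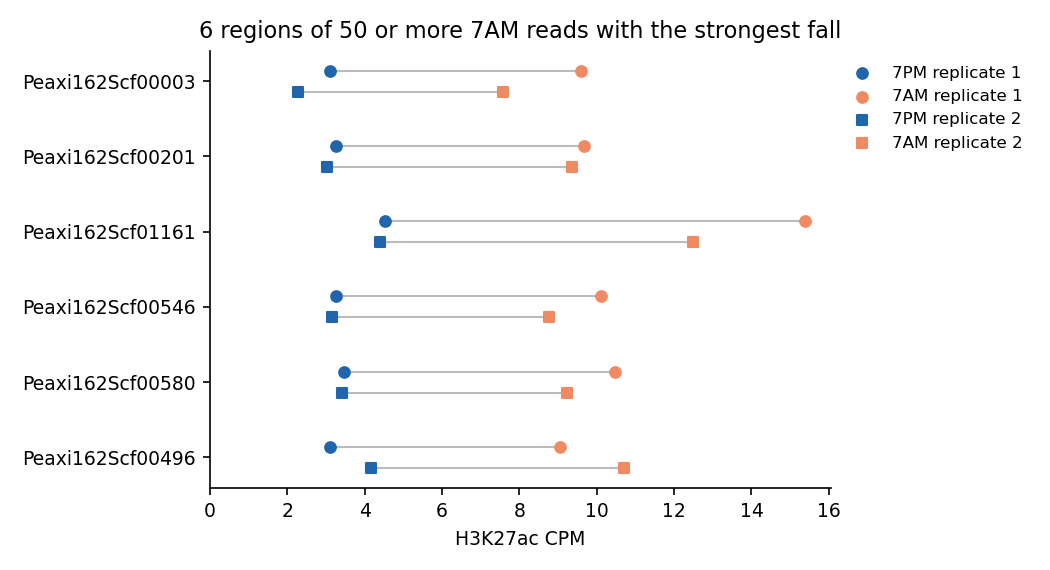
H3K27ac in CPM (x axis) at 7PM (blue) and 7AM (orange) in replicate 1 (circles) and replicate 2 (squares) at the 6 regions of at least 50 morning reads per replicate with the strongest fall (y axis, by scaffold). Evening values lie between 2.27 and 4.53 CPM and morning values between 7.59 and 15.4 CPM.

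The 3 longest regions were also the 3 with the most morning signal, and in 2 of them the replicates covered very different lengths. On Peaxi162Scf00109 at 1066401 to 1075200 both replicates had long islands, of 8800 bp and 6600 bp, with 22.8 CPM at 7PM against 54.1 at 7AM in replicate 1 and 15.9 at 7PM against 45.8 at 7AM in replicate 2 (log2 fold -1.38 ± 0.20, SD, n = 2 replicate pairs). No H3K4me3 or H3K36me3 island overlapped it, and the nearest H3K9ac island was 63800 bp away. On Peaxi162Scf00457 at 114801 to 124000 replicate 1 had 640 reads at 7PM against 1216 at 7AM over 9200 bp, whereas replicate 2 listed 800 bp with 6 reads at 7PM against 12 at 7AM. The converse held on Peaxi162Scf00255 at 579801 to 587600, where replicate 1 listed 400 bp with 2 reads at 7PM against 12 at 7AM and replicate 2 listed 7600 bp with 310 reads at 7PM against 578 at 7AM. The last 2 of these regions meet the rule through an overlap of 800 bp or less.

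Borders were compared between the replicates. The stretch shared by both replicates was a median of 58.3% of the region's length, against 72.7% where an H3K9ac island overlapped. Both borders were the same at 69 of the 859 regions, against 251 of the 2797 with H3K9ac, which is a like share. More than 1 island of a replicate was joined at 12 of the 859, against 258 of the 2797. No test was made of these differences.

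At the 4-fold limit, the regions on either side held few reads. Just inside were Peaxi162Scf00132 at 791201 to 792800, whose smaller ratio of 7AM to 7PM was 3.94, Peaxi162Scf00684 at 527001 to 527800 (3.91) and Peaxi162Scf00129 at 152601 to 154400 (3.88). Just outside were Peaxi162Scf00706 at 199201 to 200400 (4.04), Peaxi162Scf00928 at 165201 to 166800 (4.04) and Peaxi162Scf00486 at 545401 to 546400 (4.09). Evening counts at these 6 regions lay between 0 and 9 reads per library and morning counts between 12 and 31, and the 95% exact counting interval of the smaller ratio spanned 4-fold at each.

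At 5 of the 859 regions replicate 2 had 0 reads at 7PM, against 11 to 14 reads at 7AM. They lay on Peaxi162Scf00004 at 3121601, Peaxi162Scf00013 at 3112801, Peaxi162Scf00073 at 1358601, Peaxi162Scf00159 at 112401 and Peaxi162Scf00203 at 437001, and were named after their values were seen. Set against a limit of 3 reads in the 7PM library, replicate 2 was at least 4.33-fold to 5.52-fold lower in the evening there. Replicate 1 had 8 to 28 reads at 7PM against 17 to 49 at 7AM at the same places.

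The missing H3K9ac entry followed the number of H3K27ac reads. The 3698 falling regions were ranked by their H3K27ac reads at 7AM, summed over both replicates, and divided into 4 groups of equal size. In the group of fewest reads (19 to 52) 52.9% had no H3K9ac island (95% exact binomial interval 49.6 to 56.1). The share was 29.98% at 52 to 87 reads (27.04 to 33.0), 11.8% at 87 to 177 reads (9.79 to 14.1) and 2.81% at 177 reads or more (1.84 to 4.09). By length it was 42.0% up to 1000 bp, 33.9% beyond that up to 2000 bp and 11.5% above 2000 bp. Of the 859 regions, 452 stood in the group of fewest reads and 26 in that of most. Whether low coverage kept an H3K9ac change under the authors' threshold was not tested.

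**Figure D4:**
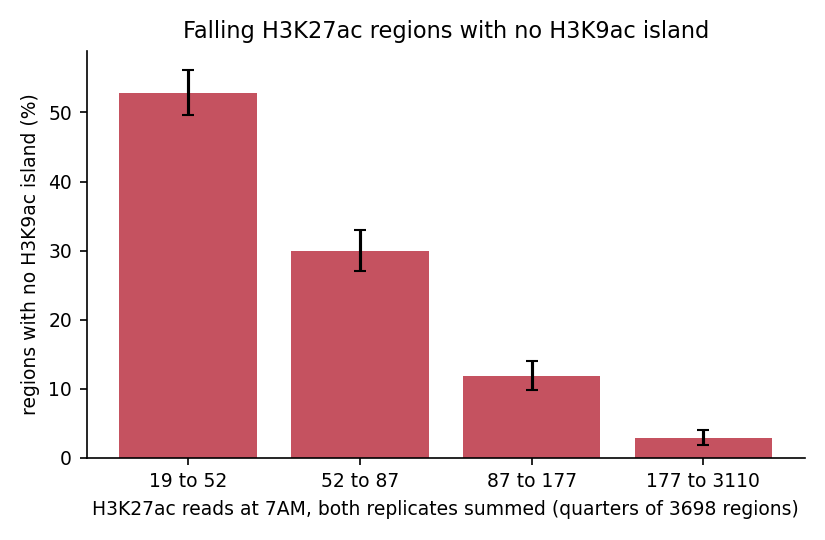
Share of falling H3K27ac regions with no overlapping H3K9ac island (y axis, percent) in 4 equal groups of the 3698 regions by their summed H3K27ac reads at 7AM (x axis); bars are shares and error bars 95% exact binomial intervals. The share is 52.9% in the group of fewest reads and 2.81% in that of most.

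The choice of regions also rested mainly on a single H3K9ac replicate. The H3K9ac lists differed in size, with 21714 islands lower and 5699 higher in replicate 1, and 5331 lower and 6415 higher in replicate 2. Overlaps with them were not scaled for list size. Islands of H3K9ac listed lower in replicate 1 overlapped 2717 of the 3698 falling regions (73.5%), and those lower in replicate 2 overlapped 710 (19.2%), with 645 regions overlapped by both. Islands listed higher overlapped 10 regions in replicate 1 and 36 in replicate 2. With H3K9ac replicate 1 left out the rule would keep 2829 regions in place of 859, and with replicate 2 left out it would keep 929.

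The nearest listed H3K9ac island lay less than 1 kb from 113 regions (13.2%), less than 5 kb from 383 (44.6%) and less than 10 kb from 533 (62.0%), at a median gap of 6200 bp, and 4 of the 859 regions stood on scaffolds with no H3K9ac island. The lists hold 39159 H3K9ac islands, and the 42 regions set aside for a fall of 4-fold or more had a median gap of 5200 bp. No difference in distance was tested. The nearest was an island lower in replicate 1 for 580 regions, lower in replicate 2 for 91, higher in replicate 2 for 120 and higher in replicate 1 for 77, with equal distances counted under each. More than 1 list can thus count the same region, and these counts were not scaled for the unequal sizes of the lists. The median H3K27ac log2 fold was -1.47 at the 134 regions with a gap of up to 1000 bp and -1.42 at the 271 regions with a gap above 10000 and up to 50000 bp, and it lay between -1.47 and -1.36 in every class of distance.

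At 7 regions an H3K9ac island began at the very border, and 4 of those islands were higher at 7PM in replicate 2. On Peaxi162Scf00135 H3K27ac fell over 171401 to 174400, with 22 reads at 7PM against 38 at 7AM in replicate 1 and 5 at 7PM against 18 at 7AM in replicate 2 (log2 fold -1.49 ± 0.59, SD, n = 2 replicate pairs). The adjoining stretch at 168801 to 171400 held 146 H3K9ac reads at 7PM against 55 at 7AM in replicate 2. On Peaxi162Scf00145 the region at 474801 to 476400 (-1.40 ± 0.43) met an H3K9ac island at 476401 to 478000 with 46 reads at 7PM against 11 at 7AM in replicate 2. The others of this kind were on Peaxi162Scf00088 at 1614801 and Peaxi162Scf00175 at 766201. Those beside a lower H3K9ac island were on Peaxi162Scf00007 at 1595601, Peaxi162Scf00052 at 745001 and Peaxi162Scf00530 at 921801; these and the preceding pair were named after their values were seen. On the other side of the rule, 21 of the 2563 regions with H3K9ac under the 4-fold limit overlapped it by 200 bp. That is the step in which the authors' islands are drawn. Among them were Peaxi162Scf00357 at 130401 to 134400 and Peaxi162Scf00063 at 2030801 to 2034600.

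At 5 of the 859 regions an H3K27ac island listed higher in 1 replicate overlapped an end of the region. The replicates could thus go opposite ways over the same bases. On Peaxi162Scf00194 replicate 1 fell over 703201 to 705400, while replicate 2 was listed higher over 702801 to 704200. On Peaxi162Scf00064 replicate 1 fell over 1486601 to 1489200, while replicate 2 was listed higher over 1487801 to 1489400. On Peaxi162Scf00284 H3K27ac fell over 366601 to 369000 (24 reads at 7PM against 51 at 7AM in replicate 1, 3 at 7PM against 17 at 7AM in replicate 2), while replicate 2 listed 368601 to 371400 as higher, with 103 reads at 7PM against 37 at 7AM. An H3K9ac island higher in replicate 2, with 177 reads at 7PM against 56 at 7AM, lay 400 bp beyond the falling region. Similar pairs stood on Peaxi162Scf00064 at 1486601, Peaxi162Scf00079 at 1520801, Peaxi162Scf00194 at 703201 and Peaxi162Scf00583 at 524801. In these the rising island held 17 to 35 reads at 7PM against 3 to 12 at 7AM.

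The methylation marks took no part in the choice of regions, so their lists give a separate view. Of the 859 regions, 744 (86.6%) overlapped no island of H3K4me3 or H3K36me3 in any list, against 70.1% of the regions that overlapped H3K9ac. A lower H3K4me3 island of either replicate overlapped 76 regions (8.85%, 95% exact binomial interval 7.03 to 10.9), where the share over all 3698 falling regions was 19.2%. A lower H3K36me3 island overlapped 50 regions (5.82%, 4.35 to 7.60), against 14.1% of all falling regions. Both shares rested mostly on 1 replicate. Without H3K4me3 replicate 2 the share was 2.10% (18 regions), against 7.22% (62 regions) without replicate 1. Without H3K36me3 replicate 3 it was 1.63% (14 regions), against 4.77% (41 regions) without replicate 1. In the lists of both replicates at once the shares were 0.466% for H3K4me3 and 0.582% for H3K36me3. Islands of higher methylation were rare: H3K4me3 was listed higher at 4 regions and H3K36me3 at 2, beside 0.352% and 0.216% of all falling regions. Among the 110 regions with a lower methylation island, 90 met one in a single list, 15 in 2 lists and 5 in 3 lists. Both methylation marks were lower, each in either replicate, at 16 regions, and at 0 regions were both lower in both replicates.

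These shares lay closer together once regions of like H3K27ac coverage were set side by side, in the same 4 read groups, a division made after the overall shares had been seen. In the group of fewest reads, a lower H3K4me3 island overlapped 5.97% of the regions without H3K9ac against 8.72% of those with it. At 52 to 87 reads the shares were 8.06% without against 10.97% with H3K9ac, and at 87 to 177 reads 14.8% without against 21.3% with it. In the group of most reads they were 42.3% (11 of 26 regions) without and 38.8% with H3K9ac. For H3K36me3 the same 4 groups held 2.43%, 4.03%, 17.6% and 34.6% (9 of 26 regions) without H3K9ac, against 3.67%, 5.41%, 16.4% and 31.8% with it. The 95% exact intervals of the regions without and with H3K9ac overlapped in every read group for both marks. Within length classes the regions without H3K9ac kept the lower H3K4me3 share, at 6.06% against 13.4% with H3K9ac up to 1000 bp, 7.21% against 13.8% up to 2000 bp, and 15.3% against 29.6% above 2000 bp. The H3K36me3 shares in these classes were 5.05%, 4.15% and 10.3% without H3K9ac, against 9.77%, 9.19% and 22.7% with it. For both marks the 95% exact intervals overlapped up to 1000 bp and stood apart in both longer classes. All regions come from the same replicate pairs, so neither overlap nor separation of these intervals is a test.

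**Figure D5:**
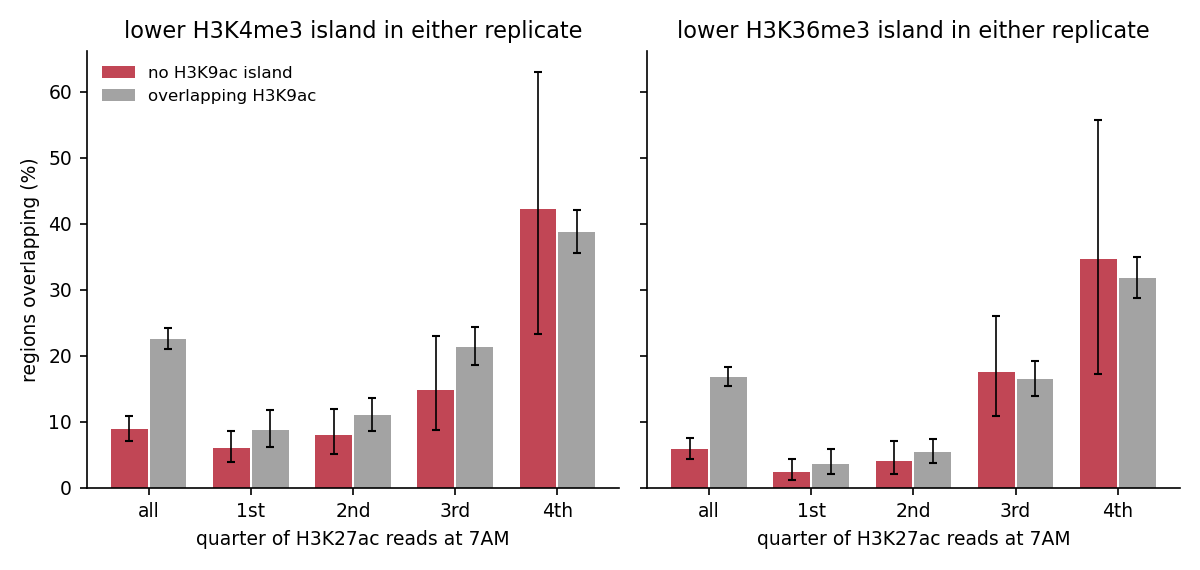
Share of regions that overlap a lower H3K4me3 island (left) or a lower H3K36me3 island (right) of either replicate (y axis, percent), over all regions and in 4 equal groups by H3K27ac reads at 7AM (x axis); red bars are the 859 regions without H3K9ac, grey bars the 2797 with it, and error bars are 95% exact binomial intervals. The overall bars stand apart (8.85% against 22.6% for H3K4me3), whereas the intervals overlap in each read group. Of the red regions, 62 of 76 for H3K4me3 meet an island of replicate 2 and 41 of 50 for H3K36me3 one of replicate 3.

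Where a methylation island did overlap, it mostly covered part of the region. Lower H3K4me3 islands covered a median of 43.7% of the region's length, took in the whole of 8 regions and touched 12 by a single 200 bp step. H3K36me3 islands covered a median of 56.3% and were long themselves, with a median of 4000 bp, and 11 regions lay wholly inside one. The median H3K27ac log2 fold was -1.33 at regions with a lower H3K4me3 island, -1.33 at those with a lower H3K36me3 island and -1.42 at the 744 regions with neither mark listed. Reads differed, with a replicate 1 median of 27.5 at 7PM against 69 at 7AM beside H3K36me3, and of 15 at 7PM against 31 at 7AM where no methylation island was listed.

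The edgeR quasi-likelihood test, blocked by replicate, was run over all 1866 H3K4me3 regions listed in both replicates. At an adjusted p under 0.05 it called 88.7% of them lower at 7PM and 9.97% higher, that is 1656 lower and 186 higher. All of these regions had been listed as changed by at least 2-fold in each replicate, so calls at most of them follow from that choice. With TMM scaling, which moves the median log2 fold of all these regions to -0.026 from -1.27, the calls were 18 lower and 186 higher, and median-of-ratios scaling gave 15 lower and 186 higher. Without the replicate block they were 16 lower and 0 higher. Such H3K4me3 regions overlapped 4 of the 859, and all 4 were called lower, so their direction is that of most H3K4me3 regions.

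On Peaxi162Scf00580 the H3K4me3 region at 777001 to 779600 lay within the H3K27ac fall, with 3.09 CPM at 7PM against 6.94 at 7AM in replicate 1 and 1.37 at 7PM against 4.57 at 7AM in replicate 2. The log2 fold was -1.44 ± 0.39 (SD, n = 2 replicate pairs; edgeR adjusted p = 0.0037), beside -1.49 for H3K27ac over the whole region. On Peaxi162Scf00102 at 122001 to 123600 it was 3.31 CPM at 7PM against 6.76 at 7AM in replicate 1 and 1.34 at 7PM against 4.60 at 7AM in replicate 2 (-1.39 ± 0.51; edgeR adjusted p = 0.0059). The highest evening value was below the lowest morning value at both places, which their listing as lower in both replicates favours.

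Smaller H3K4me3 falls lay on Peaxi162Scf01607 at 142601 to 143800 (log2 fold -1.16 ± 0.057; edgeR adjusted p = 0.0030) and on Peaxi162Scf00496 at 428601 to 429200 (-1.21 ± 0.26, SD, n = 2 replicate pairs each; edgeR adjusted p = 0.0043). Levels on Peaxi162Scf00496 were 0.724 CPM at 7PM against 1.92 at 7AM in replicate 1 and 0.614 at 7PM against 1.29 at 7AM in replicate 2. The H3K27ac log2 fold there, over 428001 to 432000, was -1.10. None of the 4 H3K4me3 calls held without the replicate block (adjusted p at least 0.17 by edgeR) or under TMM or median-of-ratios scaling, where 0 were lower at an unadjusted p under 0.05 as well. Both scalings were estimated from the listed regions alone, most of which are lower, and set their median near 0. Regions near that median lose their calls by construction, so that loss is no test of them.

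For H3K36me3, 94.2% of the 2567 regions listed in both replicates were called lower and 5.69% higher by the same edgeR test, or 2418 lower and 146 higher. These regions too had been listed as changed by at least 2-fold in each replicate, so calls at most of them follow from that choice. Under TMM scaling, which puts the median log2 fold of all these regions at -0.00079 where it was -1.27, there were 81 lower and 155 higher, and under median-of-ratios scaling 57 lower and 150 higher. H3K36me3 regions of this kind overlapped 8 of the 859, and all 8 were called lower, which is again the direction of most regions. An H3K36me3 region joins the islands of both replicates, and 5 of the 859 regions met a lower island of each replicate directly. The strongest in its weaker replicate was on Peaxi162Scf01650 at 31801 to 33400, with 0.886 CPM at 7PM against 2.21 at 7AM in replicate 1 and 0.525 at 7PM against 2.22 at 7AM in replicate 3. Its log2 fold was -1.65 ± 0.50 (SD, n = 2 replicate pairs; edgeR adjusted p = 1.0e-12). That p-value, like the others for this mark, is taken among regions already listed as changed in both replicates. Under TMM scaling the same region had an edgeR log2 fold of -0.33 (adjusted p = 0.52). Evening and morning values did not overlap, which the listing of this region as lower in both replicates favours. It shared 1200 bp with the H3K27ac fall at 31401 to 33000.

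The other named H3K36me3 regions shared between 200 and 1400 bp with an H3K27ac fall. On Peaxi162Scf00823 a stretch of 5400 bp at 212201 to 217600 had a log2 fold of -1.16 ± 0.074 and shared 1000 bp with the H3K27ac region at 216601 to 220000. On Peaxi162Scf00021 a stretch of 5800 bp at 219601 to 225400 had one of -1.37 ± 0.40 and shared 200 bp with the region at 217001 to 219800. On Peaxi162Scf00128 the H3K36me3 region at 765601 to 767800 had a log2 fold averaging -1.23 ± 0.20 (SD, n = 2 replicate pairs each) and shared 1400 bp with the H3K27ac region at 766401 to 768000. The edgeR adjusted p was at most 1.3e-10 at these 3 places, which their listing as lower in both replicates favours.

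On Peaxi162Scf00803 the H3K27ac region at 456001 to 457200 lay wholly within 9200 bp of lower H3K36me3 at 451401 to 460600. The levels there were 5.29 CPM at 7PM against 10.7 at 7AM in replicate 1 and 9.23 at 7PM against 23.5 at 7AM in replicate 3. The remaining 3 H3K36me3 regions were on Peaxi162Scf00000 at 241001, Peaxi162Scf00457 at 116201 and Peaxi162Scf01060 at 202001, with log2 folds of -1.19, -1.12 and -1.26, and these 4 were named after their values were seen. None of the 8 H3K36me3 calls held under TMM or median-of-ratios scaling, where edgeR gave 0 lower at an unadjusted p under 0.05 as well. Here too the scaling was estimated from listed regions that are mostly lower, so that loss is built in and is no test of the calls. Without the replicate block the call on Peaxi162Scf01060 was lost (edgeR log2 fold -1.52, adjusted p = 0.49), where the replicate 1 libraries held 12 reads at 7PM against 28 at 7AM, and the other 7 held.

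At the 6 regions with an island of higher methylation, that island was listed in a single replicate. H3K4me3 was higher on Peaxi162Scf00033 at 786001 to 786200 in replicate 1, with 26 reads at 7PM against 6 at 7AM, within the H3K27ac fall at 785801 to 786800. It was higher in replicate 2 on Peaxi162Scf00110 at 1602201, Peaxi162Scf00793 at 406601 and Peaxi162Scf01343 at 97001, with 22 to 39 reads at 7PM against 11 to 18 at 7AM. H3K36me3 was higher on Peaxi162Scf00174 at 187601 to 188400 in replicate 1 (47 reads at 7PM against 25 at 7AM) and on Peaxi162Scf00500 at 492801 to 493400 in replicate 3 (24 reads at 7PM against 14 at 7AM). These 6 regions were named after their values were seen.

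The 859 regions were scattered. On 325 of their 523 scaffolds there was 1 such region, on 120 there were 2 and on 78 there were 3 or more, out of 943 scaffolds with any falling H3K27ac region. Neighbours on a scaffold were a median of 258400 bp apart, and 11 of 336 neighbouring pairs were closer than 10 kb. Another falling H3K27ac region of any kind lay within 5 kb of 77 of the 859 (8.96%), against 21.3% of the regions that overlapped H3K9ac. Peaxi162Scf00007 held 9 regions among its 33 falling ones, spread over 2543 kb, with log2 folds of -2.23 to -1.34. Peaxi162Scf00003 held 7 of 30 and Peaxi162Scf00000 held 6 of 21. Scaffold lengths were not used here, so these numbers are not densities.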

How the data were processed

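ChIP-seq of 4 histone marks was analysed from 16 lists, with time, mark and replicate number taken from the sample titles and matched to the list names. Per the labels' protocols, corolla was crosslinked in 1% formaldehyde. The submitters' processing notes name SICER 1.1, Bowtie2 and cutadapt; for settings, use of input and the genome build, the sources used here give nothing. Each of the authors' deposited lists gives, per island, the read counts of a 7PM and a 7AM library, the same as CPM, a fold (ratio) in both directions, and p-values with an FDR of at most 0.0097. Islands below 2-fold are not in them. Library totals are count over CPM.

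Regions were joined at 1 bp of overlap and their reads summed. H3K4me3 and H3K36me3 were tested with edgeR 4.0.16 (R 4.3.3; library totals; replicate block, because the authors compared same-numbered libraries and drew islands per pair) over all regions listed in both replicates. Same-numbered libraries deviated together (correlation across regions 0.80 for H3K4me3 and 0.85 for H3K36me3). Reads of a pair were counted over the same islands, whose lengths differ between replicates and were not scaled out. The correlation is thus partly built in, and it cannot show that the block is needed. Listed regions had already passed a threshold, so the p-values measure the spread between pairs within that selection. The steps were tested on simulated data. Alternatives included DESeq2 1.42.0, TMM, median-of-ratios scaling, other overlaps, read minimums and left-out replicates. Named regions were the 6 strongest falls with 50 reads, the 3 longest and 3 highest, those at the limits of the rule, those with H3K27ac listed higher, up to 4 per mark with methylation lower in both replicates, and the 3 fullest scaffolds, with ties broken by morning CPM. Members and lists were chosen with earlier results of these data known. No genome sequence or gene annotation was used.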

Additional observations from a re-analysis of the deposited data

How the results depend on the processing

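The number of regions depended on how the lists were read. In place of 859 it was 184 with an FDR of at most 1e-05 and 29 with islands of 50 or more reads, and 2829 with H3K9ac replicate 1 left out (929 without H3K9ac replicate 2). Single H3K27ac replicates gave 4502 islands (without replicate 1) and 5606 islands (without replicate 2). Those are islands of 1 replicate, not joined regions, with the 4-fold limit applied in that replicate alone, so they are not like counts. The number of regions stayed within 1.5 times under 50% reciprocal overlap (616), with no H3K9ac island within 1000 bp (746), with H3K9ac islands under 10% coverage ignored (863), and with no fold limit (901) or a limit of 3-fold (757). The median H3K27ac log2 fold was -1.17 with 5 reads added, -1.45 with 0.5 read added and -1.49 from CPM as deposited; without replicate 1 it was -1.44 and without replicate 2 -1.27.

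Lower H3K4me3 was called at 4 regions, and without the replicate block at 0 by edgeR, with 0 at an unadjusted p under 0.05 as well. For H3K36me3 the fit without the block gave 7 calls in place of 8, without that on Peaxi162Scf01060. TMM and median-of-ratios scaling, which set the median of these listed regions near 0, gave 0 calls for both marks; at H3K4me3 on Peaxi162Scf01607 the log2 fold became 0.076 and 0.088, and at H3K36me3 0.10 and 0.11 on Peaxi162Scf00000, 0.047 and 0.054 on Peaxi162Scf00128, 0.16 and 0.16 on Peaxi162Scf00457, 0.10 and 0.11 on Peaxi162Scf00803, and 0.093 and 0.10 on Peaxi162Scf00823. DESeq2 with the block gave 4 and 8, a minimum of 50 reads 3 and 7, and an overlap of 50% of the shorter region 4 and 6. In single replicates 18 to 62 regions overlapped a lower H3K4me3 island and 14 to 41 a lower H3K36me3 island, or 2.10% to 7.22% and 1.63% to 4.77%; in both replicates' lists the shares were 0.466% and 0.582%. The loss of calls under TMM and median-of-ratios scaling is built in, because both were estimated from listed regions that are mostly lower. The cause of the other changes was not tested. The shallowest library, where 3 reads are 0.446 CPM, limits what can be ordered.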
